A study of Saccharomyces cerevisiae with 6 samples.

Results

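The small ribosomal subunit (40S) is built in the nucleolus of budding yeast by a large set of assembly factors, and 60 genes that encode them were examined in 3 groups of cultures. The rule takes the genes by name and role and uses no measured value, although it was written with earlier results of these data known. They encode the subcomplexes of the small-subunit (SSU) processome, the box C/D proteins NOP1, NOP56 and NOP58, and factors of later 40S maturation. Each of the 60 systematic names was found among the 5475 gene rows of the deposited expression table, 59 in a row of their own and 1, NOP58 (YOR310C), in a row shared with the overlapping dubious reading frame YOR309C. Of the 60, 58 passed the filter on low counts and were tested. The remaining 2, UTP11 (YKL099C) and UTP30 (YKR060W), had between 0 and 6 reads in every library.

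By the labels, the cells were of the BY4741 background, a haploid a-type laboratory strain of Saccharomyces cerevisiae. They were grown in YPD, a rich glucose medium, at 30 degrees C to an optical density at 600 nm of about 0.8. The 3 groups, with 2 libraries each, were untreated WT, a strain deleted for BUD27 (bud27Δ, called the deletion below), and WT incubated overnight with 50 ng/ml rapamycin, which inhibits the kinase TORC1. Rapamycin was the only agent given, and the deletion strain was not treated with it. The labels do not say how many clones of the deletion were used, and do not state that paired libraries were grown as independent cultures. The p-values therefore measure only how far these libraries differ, which may be technical. Libraries were made from the 3′ ends of polyadenylated transcripts, so that a gene's reads are counted near its 3′ end and depend little on its length.

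The deletion libraries were the shallowest, with 3212848 and 5088194 reads behind the values against 18153459 to 28774941 in the other 4 libraries, and a count of 0 (up to 3 reads) allows 0.934 CPM (reads scaled to a common library total) in the shallowest and 0.104 CPM in the deepest. This floor covers counting error only. BUD27, the deleted gene, was covered by 6 and 9 reads in the deletion libraries, by 268 and 246 in WT and by 326 and 234 with rapamycin. Reads of its neighbour FRS2 came to 124 and 118 in bud27Δ, beside 3405 and 1500 in WT, or 34.4 and 23.0 scaled CPM beside 165 and 103. TRP1, which BY4741 carries, was at 5 and 8 reads in bud27Δ and 738 and 626 in WT. Its scaled CPM were 1.39 and 1.56 beside 35.8 and 42.9. The effects of losing BUD27 and of these other differences between the strains therefore cannot be told apart. Genes that carry deletions in BY4741 were also examined. HIS3 had 54.4 and 47.2 scaled CPM in WT, 361 and 245 in bud27Δ and 142 and 134 with rapamycin. LEU2 and MET17 were at most 5.27 and 5.48 scaled CPM in any library, and URA3 at most 3.39. The source of the HIS3 reads was not tested. LYS2, which BY4741 carries, had the same order of groups as HIS3. It was at 47.8 and 45.6 scaled CPM in WT, 321 and 202 in bud27Δ and 82.7 and 83.0 with rapamycin. All 6 a-specific genes examined had at least 73 reads in every library. Of the alpha-specific genes, MF(ALPHA)1 had at most 1 read and MF(ALPHA)2 at most 7. STE3 had 89 and 42 reads in WT, 2 and 1 in bud27Δ and 221 and 183 with rapamycin. In scaled CPM, STE3 was at 4.31 and 2.88, 0.555 and 0.195, and 6.44 and 7.32. UTP11 and UTP30 lie on chromosome XI (build R64), at 255720 to 256472 on the minus strand and 556518 to 557342 on the plus strand. Of the 202 single-gene rows of this chromosome that start at or after base 200000, 64.9% had under 60 reads summed over the 6 libraries, against 1.20% of 4754 rows on the other chromosomes. The position 200000 was chosen after the reads were seen, the cause was not tested, and the low counts of UTP11 and UTP30 are therefore not read as low expression.

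As background, the SSU processome assembles on the nascent 35S ribosomal RNA precursor as RNA polymerase I makes it. The U3 small nucleolar RNA base-pairs with the precursor, and the UtpA, UtpB and Mpp10 subcomplexes hold the 5′ external spacer while the 18S domains fold and the first cleavages are made. RNA helicases and GTPases then release U3 and dismantle the particle, and late factors accompany the pre-40S particle into the cytoplasm, where the nuclease Nob1 cuts the 3′ end of 18S rRNA. Genes of ribosome biogenesis (the Ribi regulon) are known to be transcribed when TORC1 is active. Many of their promoters carry an RRPE element, bound by the repressor Stb3, and a PAC element, bound by the repressors Dot6 and Tod6. Bud27 is a prefoldin-like protein that binds RNA polymerase subunits, and the study set its deletion beside the inhibition of TOR.

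The promoters of the 60 genes were rich in both elements. Windows of 250 bases before the coding start and 50 bases from it (RefSeq, build R64) were searched on both strands for RRPE, written AAAATTTT, and PAC, written CGATGAG. RRPE reads the same on both strands, and the letters of the 2 elements cannot overlap. RRPE was found in 47 of 60 members (78.3%) against 542 of all 6001 protein-coding promoters (9.03%), and PAC in 42 (70.0%) against 421 (7.02%). Both elements stood in 35 members (58.3%) and in 158 of all promoters (2.63%), and at least 1 of them in 54 members (90.0%) against 805 (13.4%). GATGAG, the inner letters of PAC, which every PAC match contains and which were added after the sequences had been read, occurred in 54 members (90.0%) and in 20.4% of all promoters. The stress response element AGGGG was found in 7 members (11.7%) against 21.6% of all promoters, and the Gcn4 motif TGACTCA in 1 (1.67%) against 2.73%. The 44 PAC matches had their first base at a median of 112 bases before the coding start (position -112), and the 56 RRPE matches lay at a median of -133. Of these, 41 PAC and 52 RRPE matches had that base between -200 and -50. A match of letters is a description only, and binding was not measured.

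**Figure D1:**
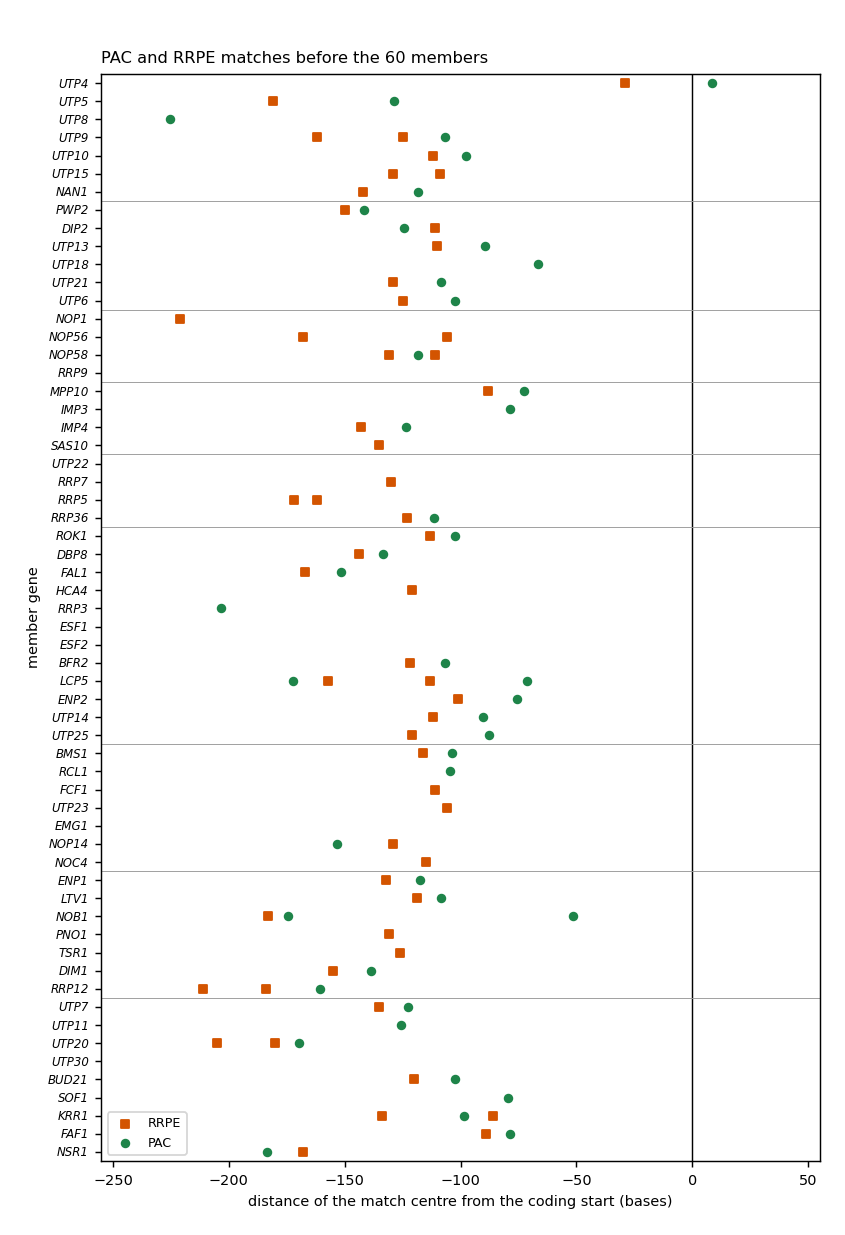
Positions of RRPE and PAC letters in the promoters of the 60 genes, by distance of the match centre from the coding start in bases, with genes in order of role class. Most RRPE (squares) and PAC (circles) matches lie between -200 and -50, often side by side in 1 promoter.

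Printed here are 4 of these promoters, to show the elements of genes that the later results turn on, namely NSR1, the member with the largest decrease in the deletion, and 3 members that were higher there (NOP56, SOF1 and UTP14). Each is 300 bases of build R64, read 5′ to 3′ on the gene's strand, with the coding sequence starting after base 250. Capitals mark RRPE and PAC matches on either strand, so that CTCATCG is PAC read from the other strand. NSR1 is from chrVII:807607-807906 on the minus strand and NOP56 from chrXII:545847-546146 on the plus strand. SOF1 is from chrXII:127273-127572 on the plus strand and UTP14 from chrXIII:82840-83139 on the plus strand.
NSR1: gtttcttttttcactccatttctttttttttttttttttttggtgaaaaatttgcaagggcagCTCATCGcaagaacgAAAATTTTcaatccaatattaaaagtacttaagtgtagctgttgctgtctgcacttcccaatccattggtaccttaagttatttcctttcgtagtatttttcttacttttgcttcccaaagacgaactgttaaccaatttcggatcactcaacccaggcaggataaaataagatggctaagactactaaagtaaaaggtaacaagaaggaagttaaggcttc
NOP56: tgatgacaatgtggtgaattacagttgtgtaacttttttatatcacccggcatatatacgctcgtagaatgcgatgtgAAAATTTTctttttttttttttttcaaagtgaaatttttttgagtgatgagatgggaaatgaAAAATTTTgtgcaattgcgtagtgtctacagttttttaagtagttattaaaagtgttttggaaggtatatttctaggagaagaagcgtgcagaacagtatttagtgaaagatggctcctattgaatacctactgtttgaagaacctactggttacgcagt
SOF1: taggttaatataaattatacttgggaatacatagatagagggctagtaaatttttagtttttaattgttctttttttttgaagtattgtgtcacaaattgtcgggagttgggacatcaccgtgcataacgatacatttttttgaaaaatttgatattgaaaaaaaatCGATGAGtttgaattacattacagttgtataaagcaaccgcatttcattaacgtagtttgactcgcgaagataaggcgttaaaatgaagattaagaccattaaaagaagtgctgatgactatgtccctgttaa
UTP14: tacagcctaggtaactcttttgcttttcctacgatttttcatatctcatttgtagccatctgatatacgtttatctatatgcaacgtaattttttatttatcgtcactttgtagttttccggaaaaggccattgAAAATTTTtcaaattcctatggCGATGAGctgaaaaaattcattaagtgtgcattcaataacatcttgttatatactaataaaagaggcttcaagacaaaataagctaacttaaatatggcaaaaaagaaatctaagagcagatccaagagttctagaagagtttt
NSR1 has PAC (read from the other strand) at -187 and RRPE at -172, and UTP14 has RRPE at -116 and PAC at -94. NOP56 has RRPE at 2 places, -172 and -110, with GATGAG at -127 and no full PAC. SOF1 has PAC at -83 and no RRPE.

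After rapamycin most of the 58 tested genes fell, while in the deletion some fell, a few rose and the others were not called. Levels are given as scaled CPM, that is the deposited CPM divided by a scaling factor per library (trimmed mean of M values, TMM), and differences as log2 fold changes of scaled CPM + 1 with their standard error (SE) from limma. A gene was called where its p-value, adjusted after Benjamini and Hochberg over all 5279 gene rows tested, was below 0.05. After rapamycin 50 of the 58 tested members were lower than in WT (86.2%) against 21.5% of all rows, and 0 were higher against 24.4%. In the deletion 24 were lower (41.4%) against 25.5% of all rows, and 5 were higher (8.62%) against 21.7%. Comparing the deletion with rapamycin directly, 37 members were higher in the deletion (63.8%) against 25.6% of all rows and 2 were lower (3.45%) against 29.4%. Both treatments were compared with the same 2 WT libraries.

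The size of the changes differed in the same way. The members' median log2 fold change was -1.06 after rapamycin, -0.24 in the deletion and 0.68 for the deletion minus rapamycin, where the medians of all rows were 0.05, -0.02 and -0.01. The members' fold changes spread less after rapamycin (SD 0.39, from -1.79 to 0.14) than in the deletion (SD 0.72, from -2.65 to 0.74), beside SDs of 0.91 and 0.87 over all rows. A decrease of at least 1 log2 unit that was also called was seen in 32 members (55.2%) after rapamycin against 8.88% of all rows. In the deletion such a decrease was seen in 10 members (17.2%) against 11.6%. An equally large called difference with the deletion above rapamycin was seen in 19 members (32.8%) against 9.02%. Such counts describe the list and no test of the list was made.

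The scaling bears on the deletion counts. On the deposited CPM, the median log2 fold change over all rows was 0.38 in the deletion and 0.60 after rapamycin. The deletion then had 20 members higher (34.5%) against 42.5% of all rows, and 11 lower (19.0%) against 13.3%. Rapamycin had 30 lower (51.7%) against 8.18%. The members' median was then 0.19 in the deletion and -0.48 after rapamycin, below the median of all rows in both. Single libraries also moved the deletion counts, given here out of the 58 members tested. Without WT replicate 1 the deletion had 3 members higher, against 12.4% of all rows in that fit. Without WT replicate 2 it had 3 higher, against 11.9%, and 15 lower, against 15.1%. Without deletion replicate 2 it had 13 higher, against 27.7%.

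**Figure D2:**
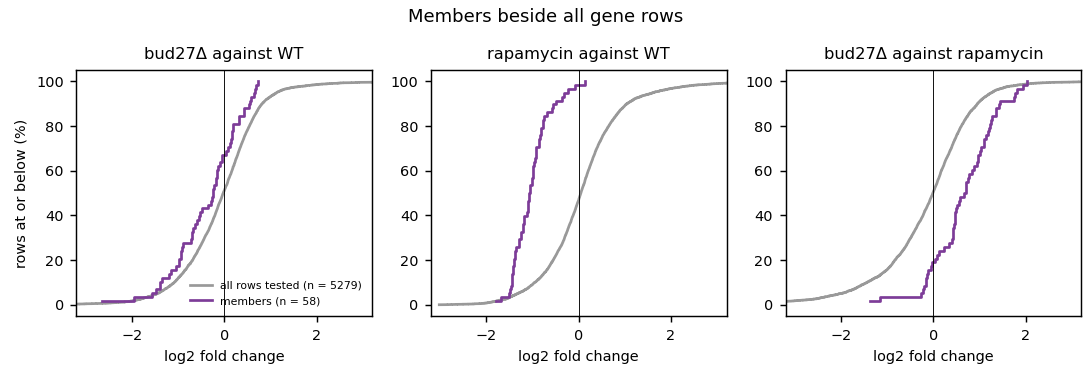
Cumulative share of rows in percent (vertical axis) by log2 fold change (horizontal axis) for the 58 tested members and for all 5279 rows in the 3 comparisons. The members' curve lies far left of that of all rows after rapamycin (medians -1.06 and 0.05), slightly left of it in the deletion (medians -0.24 and -0.02) and right of it for the deletion against rapamycin (medians 0.68 and -0.01).

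**Figure D3:**
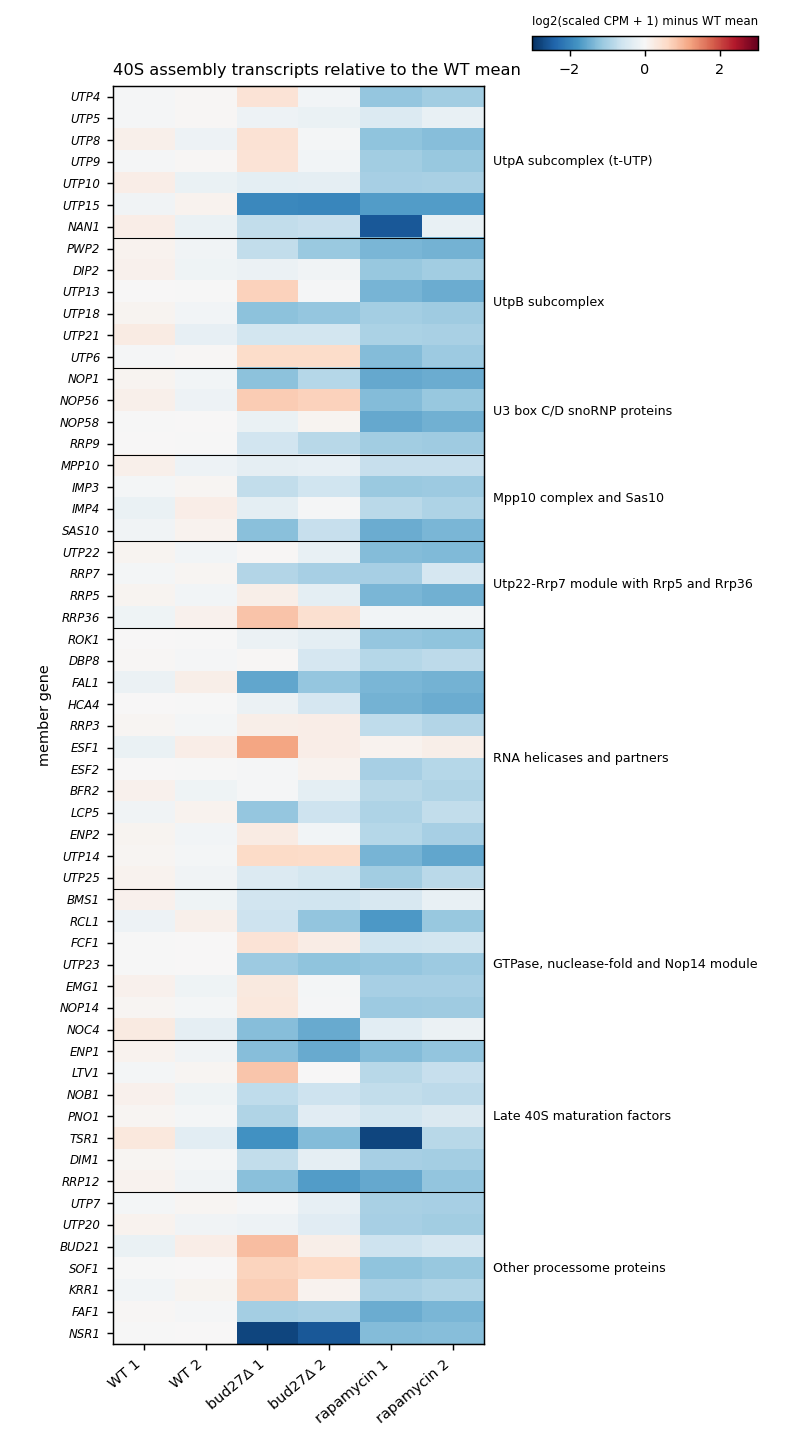
log2(scaled CPM + 1) of each of the 58 tested members in each of the 6 libraries minus its mean in WT, by role class, on a colour scale from -3 (blue) to 3 (red). The rapamycin libraries are below WT in nearly every line, and the deletion libraries hold genes below, near and above WT.

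Summed over all 60 genes, the level was 6302 and 6026 scaled CPM in WT, 3641 and 3556 in bud27Δ and 2660 and 2770 with rapamycin. Much of this sum came from 2 abundant genes, NSR1 and NOP1. Without them the sums were 3533 and 3304 in WT, 3014 and 2783 in bud27Δ and 1594 and 1690 with rapamycin, so the deletion then lay nearer to WT than to rapamycin. NSR1 alone made up 30.4% and 32.6% of the members' reads in WT, 7.85% and 9.31% in bud27Δ and 29.6% and 28.8% with rapamycin. The median member had 48.9 and 46.1 scaled CPM in WT, 43.0 and 36.3 in bud27Δ and 23.0 and 23.2 with rapamycin. In bulk RNA of this kind, fewer transcripts per cell and fewer cells with the transcript cannot be told apart.

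The UtpA subcomplex is the first to bind the 5′ external spacer and in yeast is also linked to transcription of the rDNA (t-UTPs). After rapamycin 5 of its 7 genes fell (UTP4, UTP8, UTP9, UTP10 and UTP15), with a median log2 fold change of -1.11. In the deletion only UTP15 fell and none rose, and the median of the 7 was -0.18. UTP15, a WD40-repeat protein of the subcomplex (YMR093W, chromosome XIII), had 148 and 169.8 scaled CPM in WT, 41.1 and 39.7 in bud27Δ and 48.8 and 48.6 with rapamycin. Its 4 values in the deletion and after rapamycin were all far below WT, with log2 fold changes of -1.95 (SE 0.13, adjusted p = 3.3e-05) and -1.68 (SE 0.13, adjusted p = 5.3e-05). UTP10, a large HEAT-repeat protein, had 194 and 147 scaled CPM in WT, 137 and 139 in bud27Δ and 84.0 and 85.4 with rapamycin. The deletion values lay just below WT and did not pass the test, at -0.29 (SE 0.15, adjusted p = 0.15), whereas the fall after rapamycin did, at -0.99 (SE 0.15, adjusted p = 0.0013). UTP8, a scaffold protein of the subcomplex, had 62.3 and 49.6 in WT, 75.5 and 53.4 in bud27Δ and 23.4 and 22.2 with rapamycin. Its deletion values overlapped WT (0.19, SE 0.19, adjusted p = 0.45), its rapamycin values were below both (-1.25, SE 0.19, adjusted p = 0.0013), and the deletion exceeded rapamycin by a log2 difference of 1.44 (SE 0.19, adjusted p = 0.00052). UTP4 and UTP9 had like values, with deletion log2 fold changes of 0.17 each and rapamycin log2 fold changes of -1.11 and -1.08. UTP5 had log2 fold changes of -0.18 in the deletion and -0.31 after rapamycin, neither called. NAN1 (Utp17) had 2.56 and 16.8 scaled CPM in the 2 rapamycin libraries, and its log2 fold change of -1.38 was not called.

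The UtpB subcomplex, a set of mostly WD40-repeat proteins next to the U3 snoRNA, fell as a whole after rapamycin, with 6 of 6 genes lower and a median of -1.15. In the deletion PWP2, UTP18 and UTP21 fell, UTP6 rose and UTP13 and DIP2 were not called. UTP18 had 73.7 and 66.7 scaled CPM in WT, 29.4 and 30.6 in bud27Δ and 33.9 and 33.0 with rapamycin, which put both groups far below WT and close to each other. The log2 fold changes were -1.20 (SE 0.13, adjusted p = 0.00032) and -1.05 (SE 0.13, adjusted p = 0.00046). PWP2 (Utp1), a scaffold protein of the subcomplex, had 48.3 and 42.3 in WT, 26.6 and 20.5 in bud27Δ and 17.0 and 16.2 with rapamycin. Deletion values were between the other groups, with no overlap, at -0.92 (SE 0.17, adjusted p = 0.0033) against WT and -1.39 (SE 0.17, adjusted p = 0.0004) for rapamycin, and the deletion call was lost on the deposited scale. UTP13 behaved differently, with 37.6 and 36.8 in WT, 60.8 and 36.2 in bud27Δ and 13.5 and 12.7 with rapamycin. One deletion library was above WT and the other just below it (0.33, SE 0.23, adjusted p = 0.26), while rapamycin was far below (-1.44, SE 0.23, adjusted p = 0.0014), and the deletion exceeded rapamycin by 1.76 (SE 0.23, adjusted p = 0.00041). UTP6 rose in the deletion by 0.55, from 15.5 and 16.1 scaled CPM to 23.6 and 23.4, and fell to 5.77 and 6.88 after rapamycin. UTP21 was lower in both, at -0.56 and -0.96, and DIP2 only passed the test after rapamycin, at -1.10 beside -0.13 in the deletion.

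The box C/D core proteins Nop1 (fibrillarin, the 2′-O-methyltransferase), Nop56 and Nop58 package U3 and the other box C/D snoRNAs, and Rrp9 is specific to U3. After rapamycin all 4 genes fell, with a median of -1.35. In the deletion NOP1 and RRP9 fell, NOP56 rose and NOP58 was not called. NOP1 (YDL014W) had 854 and 756 scaled CPM in WT, 341 and 443 in bud27Δ and 278 and 284 with rapamycin. Every treated or deleted library was below WT, with log2 fold changes of -1.05 (SE 0.17, adjusted p = 0.0018) and -1.51 (SE 0.17, adjusted p = 0.00026). NOP56 (YLR197W, chromosome XII) had 152 and 125 in WT, 235 and 224 in bud27Δ and 55.6 and 62.3 with rapamycin. The 3 groups did not overlap, and NOP56 rose in the deletion (0.74, SE 0.14, adjusted p = 0.0046) while it fell after rapamycin (-1.21, SE 0.14, adjusted p = 0.00038), a difference of 1.95 (SE 0.14, adjusted p = 2.8e-05). NOP58, Nop56's partner on the snoRNA, had 248 and 254 in WT, 217 and 268 in bud27Δ and 86.0 and 92.5 with rapamycin. Its deletion values spanned those of WT (-0.06, SE 0.14, adjusted p = 0.76) and its rapamycin values were far below (-1.48, SE 0.14, adjusted p = 0.00015), but on the deposited scale NOP58 was called higher in the deletion at 0.38. NOP58's row holds the reads of a second reading frame, which cannot be separated. RRP9 had 47.7 and 47.6 scaled CPM in WT, 31.9 and 26.3 in bud27Δ and 22.7 and 22.3 with rapamycin, and fell by 0.70 and 1.05.

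Mpp10, Imp3 and Imp4 form a complex that promotes the pairing of U3 with the pre-rRNA, and Sas10 (Utp3) is bound to Mpp10. After rapamycin all 4 of their genes fell, with a median of -0.98, and in the deletion SAS10 and IMP3 fell, with a median of -0.47 over the 4. SAS10 had 100.2 and 116 scaled CPM in WT, 44.9 and 66.2 in bud27Δ and 37.6 and 41.0 with rapamycin. The deletion libraries were below WT and above rapamycin, with log2 fold changes of -0.97 (SE 0.19, adjusted p = 0.0048) and -1.44 (SE 0.19, adjusted p = 0.00066), and their direct difference of 0.46 (SE 0.19, adjusted p = 0.072) did not pass the test. IMP3 had 36.6 and 39.6 in WT, 22.5 and 24.7 in bud27Δ and 17.2 and 17.4 with rapamycin. The groups again stood in this order without overlap, at -0.67 (SE 0.14, adjusted p = 0.0059) and -1.09 (SE 0.14, adjusted p = 0.00052). Without WT replicate 2 the deletion calls of SAS10 and IMP3 were lost (limma adjusted p = 0.057 and 0.0504), and that of IMP3 was also lost on the deposited scale. MPP10 and IMP4 had deletion log2 fold changes of -0.26 and -0.17, not called, and fell by 0.69 and 0.87 after rapamycin.

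Utp22 and Rrp7 form the UtpC module with casein kinase II, Rrp5 is required for both subunits and Rrp36 acts in early cleavage. After rapamycin UTP22, RRP7 and RRP5 fell and RRP36 was not called. In the deletion RRP7 fell and RRP36 rose. UTP22 had 57.1 and 50.3 scaled CPM in WT, 54.9 and 45.6 in bud27Δ and 21.3 and 20.9 with rapamycin. RRP5, with 150.0 and 134 in WT, 161 and 116 in bud27Δ and 54.2 and 51.4 with rapamycin, showed the same order. For both genes the deletion overlapped WT, at -0.10 (SE 0.15, adjusted p = 0.61) for UTP22 and -0.05 (SE 0.17, adjusted p = 0.81) for RRP5. Rapamycin lay far below WT, at -1.30 (SE 0.15, adjusted p = 0.0003) and -1.41 (SE 0.17, adjusted p = 0.00041). The deletion exceeded rapamycin by 1.36 (SE 0.17, adjusted p = 0.00038) for RRP5. RRP36 had 13.3 and 16.2 in WT, 27.5 and 20.8 in bud27Δ and 13.8 and 13.8 with rapamycin, a rise of 0.67 in the deletion and a log2 fold change of -0.08 after rapamycin. RRP7 was lower in both, at -0.94 and -0.75.

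Of the 12 genes for RNA helicases and their partners, 11 fell after rapamycin, with a median of -0.92. In the deletion FAL1, LCP5 and UTP25 fell, UTP14 rose, and the median was -0.19. UTP14 (YML093W, chromosome XIII), whose product activates the helicase Dhr1 that removes U3, had 46.6 and 43.3 scaled CPM in WT, 67.7 and 66.8 in bud27Δ and 16.6 and 14.7 with rapamycin. The groups did not overlap, with a rise of 0.57 (SE 0.13, adjusted p = 0.01) in the deletion and a fall after rapamycin (-1.47, SE 0.13, adjusted p = 0.00012). The resulting difference between deletion and rapamycin, 2.04 (SE 0.13, adjusted p = 1.5e-05), was the highest of the 58 members. HCA4 (Dbp4), a DEAD-box helicase, had 61.0 and 59.9 in WT, 53.3 and 42.3 in bud27Δ and 22.1 and 21.0 with rapamycin. Its deletion values were below WT by less than the test could call (-0.34, SE 0.15, adjusted p = 0.093), and its rapamycin values were lower still (-1.45, SE 0.15, adjusted p = 0.00021). LCP5, which binds the particle with Bfr2, had 55.1 and 63.5 in WT, 26.1 and 37.8 in bud27Δ and 30.8 and 34.9 with rapamycin. Deletion and rapamycin values overlapped each other and were below WT, at -0.89 (SE 0.19, adjusted p = 0.0069) and -0.83 (SE 0.19, adjusted p = 0.0088). ESF1 was the exception, with 25.7 and 34.2 in WT, 68.2 and 34.1 in bud27Δ and 32.1 and 33.5 with rapamycin. One deletion library stood above all others and the rapamycin values lay within WT, and neither 0.68 (SE 0.29, adjusted p = 0.089) in the deletion nor 0.14 (SE 0.29, adjusted p = 0.73) after rapamycin was called.

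The calls of LCP5 and UTP14 in the deletion were lost without WT replicate 2 (limma adjusted p = 0.07 and 0.071). LCP5 was also not called on the deposited scale in either comparison, nor after rapamycin without WT replicate 2 or rapamycin replicate 1. FAL1, a DEAD-box protein related to eIF4A, had 21.7 and 28.0 scaled CPM in WT, 7.77 and 10.5 in bud27Δ and 8.94 and 8.64 with rapamycin, a fall of 1.35 and 1.39. UTP25 fell by 0.48 and 0.92. The remaining helicases ROK1, DBP8 and RRP3 and the partners ESF2, BFR2 and ENP2 had deletion log2 fold changes between -0.24 and 0.19, none called, and fell after rapamycin by 0.81 to 1.19.

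The next class holds the GTPase Bms1 with its cyclase-like partner Rcl1, the PIN-domain proteins Fcf1 (Utp24), which cuts the pre-rRNA, and Utp23, the methyltransferase Emg1 (Nep1), and Nop14 with its partner Noc4. After rapamycin RCL1, FCF1, UTP23, EMG1 and NOP14 fell, with a median of -0.99 over the 7. In the deletion BMS1, RCL1, UTP23 and NOC4 fell, with a median of -0.58. UTP23 had 41.9 and 42.6 scaled CPM in WT, 19.4 and 17.7 in bud27Δ and 18.4 and 19.4 with rapamycin. The deletion and rapamycin libraries overlapped each other below WT, at -1.15 (SE 0.14, adjusted p = 0.00051) and -1.12 (SE 0.14, adjusted p = 0.00043). RCL1 had 35.2 and 43.5 in WT, 25.0 and 16.6 in bud27Δ and 11.2 and 17.3 with rapamycin. All 4 values were below WT but the pairs were spread, at -0.91 (SE 0.26, adjusted p = 0.021) and -1.43 (SE 0.26, adjusted p = 0.0026). The deletion call of RCL1 was lost on the deposited scale and without WT replicate 1, WT replicate 2 or deletion replicate 2, with limma adjusted p up to 0.18.

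NOP14 and NOC4, whose products bind each other, differed. NOP14 had 38.9 and 35.7 scaled CPM in WT, 46.9 and 36.4 in bud27Δ and 17.1 and 17.2 with rapamycin. Its deletion values overlapped or exceeded WT (0.15, SE 0.16, adjusted p = 0.47), its rapamycin values were below (-1.08, SE 0.16, adjusted p = 0.0011), and the deletion was higher than rapamycin by 1.22 (SE 0.16, adjusted p = 0.00046). NOC4 (YPR144C, chromosome XVI) had 24.5 and 16.8 in WT, 7.77 and 6.43 in bud27Δ and 16.2 and 17.8 with rapamycin. It was low in the deletion, at -1.40 (SE 0.21, adjusted p = 0.0013), with rapamycin overlapping WT (-0.24, SE 0.21, adjusted p = 0.37) and a direct difference of -1.16 (SE 0.21, adjusted p = 0.0022). BMS1 had a like order, with 57.8 and 48.9 in WT, 35.5 and 35.1 in bud27Δ and 37.6 and 45.6 with rapamycin. Its log2 fold changes were -0.58, called, and -0.35, not called. Unlike those of NOC4, its rapamycin values lay below WT without overlap, and its direct difference of -0.23 was not called. FCF1 and EMG1 had deletion log2 fold changes of 0.31 and 0.12, not called, and fell by 0.56 and 0.99 after rapamycin.

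**Figure D4:**
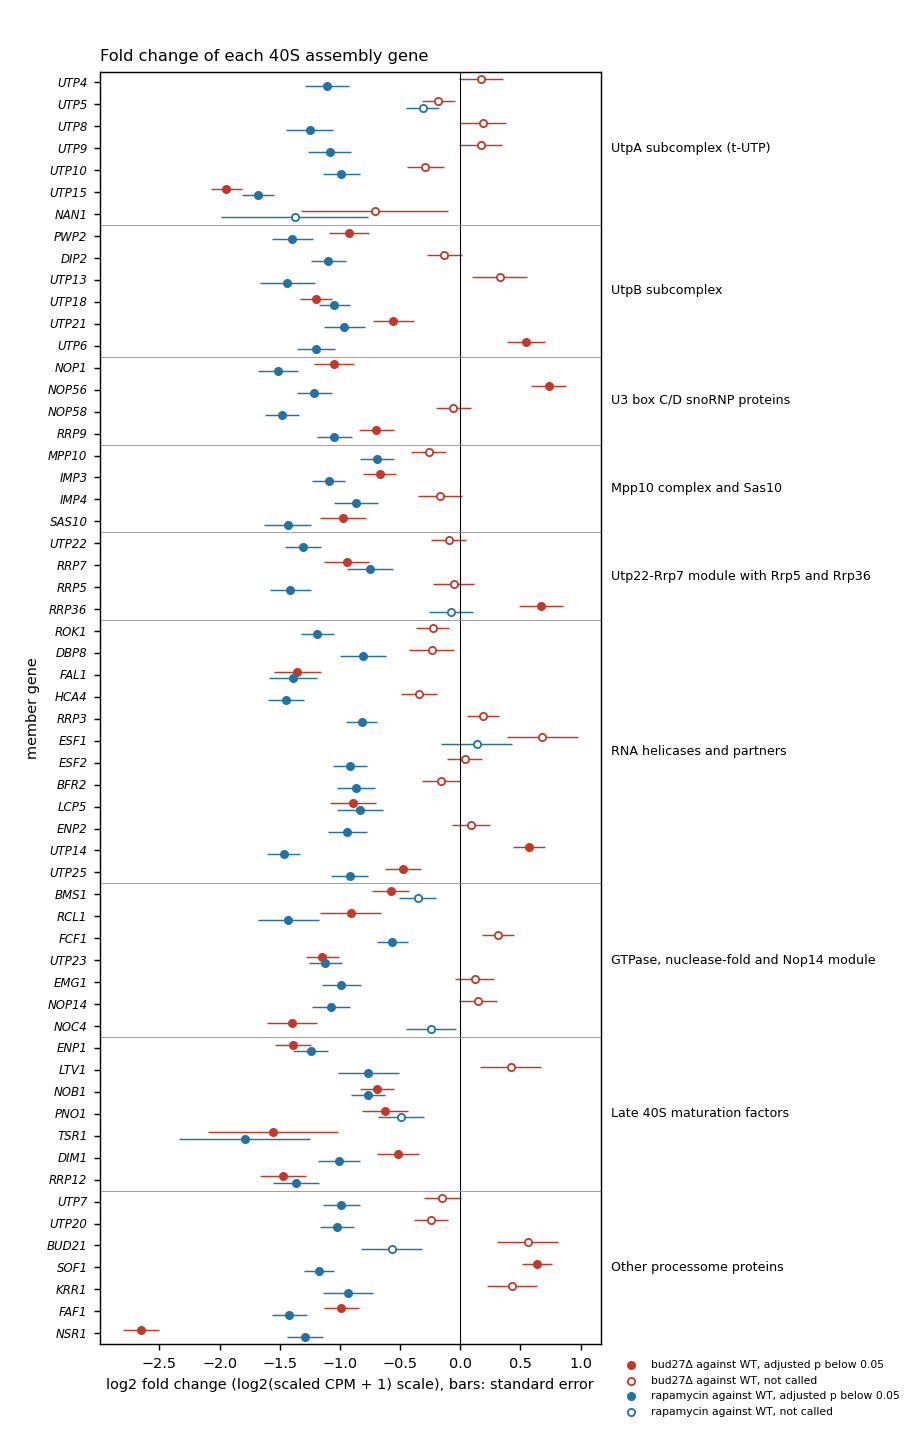
log2 fold change of each of the 58 tested members against WT in the deletion and after rapamycin, grouped by role class, with bars of 1 SE. Rapamycin points lie between -1.79 and 0.14, and deletion points between -2.65 and 0.74.

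Of the 9 classes, all of them small, the late 40S maturation factors had the largest share lower in the deletion. It was 85.7% against 25.5% of all rows, with 6 of 7 called lower (ENP1, NOB1, PNO1, TSR1, DIM1 and RRP12). Their class median was -0.69. Of these 6, only ENP1 and RRP12 kept the call in every alternative fit described below. The calls of PNO1, TSR1 and DIM1 were each lost in at least 1 fit that left out a library. After rapamycin 6 of 7 fell as well, against 21.5% of all rows, PNO1 being the one not called. The median was -1.01 after rapamycin and 0.07 for the deletion minus rapamycin. RRP12, a HEAT-repeat protein of pre-40S export, had 81.6 and 70.8 scaled CPM in WT, 31.1 and 23.0 in bud27Δ and 25.5 and 32.7 with rapamycin. The 2 low groups overlapped each other well below WT, at -1.47 (SE 0.19, adjusted p = 0.00073) and -1.37 (SE 0.19, adjusted p = 0.00082). TSR1, a GTPase-like protein of the late pre-40S particle, had 52.0 and 33.3 in WT, 11.1 and 16.4 in bud27Δ and 5.30 and 23.0 with rapamycin. It was below WT in all 4 libraries, but each pair was spread, and its large log2 fold changes of -1.56 (SE 0.54, adjusted p = 0.046) and -1.79 (SE 0.54, adjusted p = 0.028) were only just called. Leaving out any 1 library of WT or the deletion lost the first (limma adjusted p from 0.065 to 0.26). Leaving out either WT library or rapamycin replicate 1 lost the second. TSR1 was also not called in the deletion by the count test of edgeR or with no filter on low values, and in neither comparison by DESeq2 or on the deposited scale.

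LTV1, which is needed for shaping the beak of the subunit and for export, was the member of this class not lower in the deletion. It had 25.1 and 27.5 scaled CPM in WT, 47.7 and 26.3 in bud27Δ and 14.3 and 15.8 with rapamycin. Deletion replicate 1 was above WT and replicate 2 was level with it (0.42, SE 0.25, adjusted p = 0.2), and rapamycin was below (-0.76, SE 0.25, adjusted p = 0.039). The rapamycin call was lost on the deposited scale and without any 1 of the WT or rapamycin libraries, while the deletion minus rapamycin difference was 1.18 (SE 0.25, adjusted p = 0.005). ENP1 had 93.0 and 81.3 in WT, 35.5 and 29.8 in bud27Δ and 34.9 and 37.5 with rapamycin, a fall of 1.39 and 1.24. NOB1, the 18S 3′ end nuclease, fell by 0.69 and 0.77, and its partner PNO1 (Dim2) by 0.62 in the deletion with -0.49 after rapamycin. DIM1, the 18S dimethyltransferase, fell by 0.51 and 1.01.

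The other processome proteins include the member with the largest change in the deletion. NSR1 (YGR159C, chromosome VII), a nucleolin-like RNA-binding protein of the nucleolus, had 1916 and 1966 scaled CPM in WT, 286 and 331 in bud27Δ and 788 and 797 with rapamycin. The groups were far apart, with the deletion lowest, at -2.65 (SE 0.15, adjusted p = 1.6e-05), and rapamycin between it and WT, at -1.29 (SE 0.15, adjusted p = 0.00034). The deletion was below rapamycin by a log2 difference of -1.36 (SE 0.15, adjusted p = 0.0002). SOF1 (YLL011W, chromosome XII), a WD40-repeat protein, had 57.1 and 57.4 in WT, 92.1 and 87.6 in bud27Δ and 24.1 and 25.5 with rapamycin. It moved in opposite directions without overlap, rising in the deletion (0.64, SE 0.12, adjusted p = 0.0044) and falling after rapamycin (-1.18, SE 0.12, adjusted p = 0.00022), a difference of 1.82 (SE 0.12, adjusted p = 1.8e-05). FAF1 was lower in both, at -0.99 and -1.42. UTP7, UTP20 and the KH-domain protein KRR1 fell after rapamycin by 0.99, 1.02 and 0.93 and had deletion log2 fold changes of -0.15, -0.24 and 0.43, not called. BUD21 (Utp16) was called in neither, at 0.56 and -0.57, with deletion replicates of 48.5 and 28.4 scaled CPM.

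**Figure D5:**
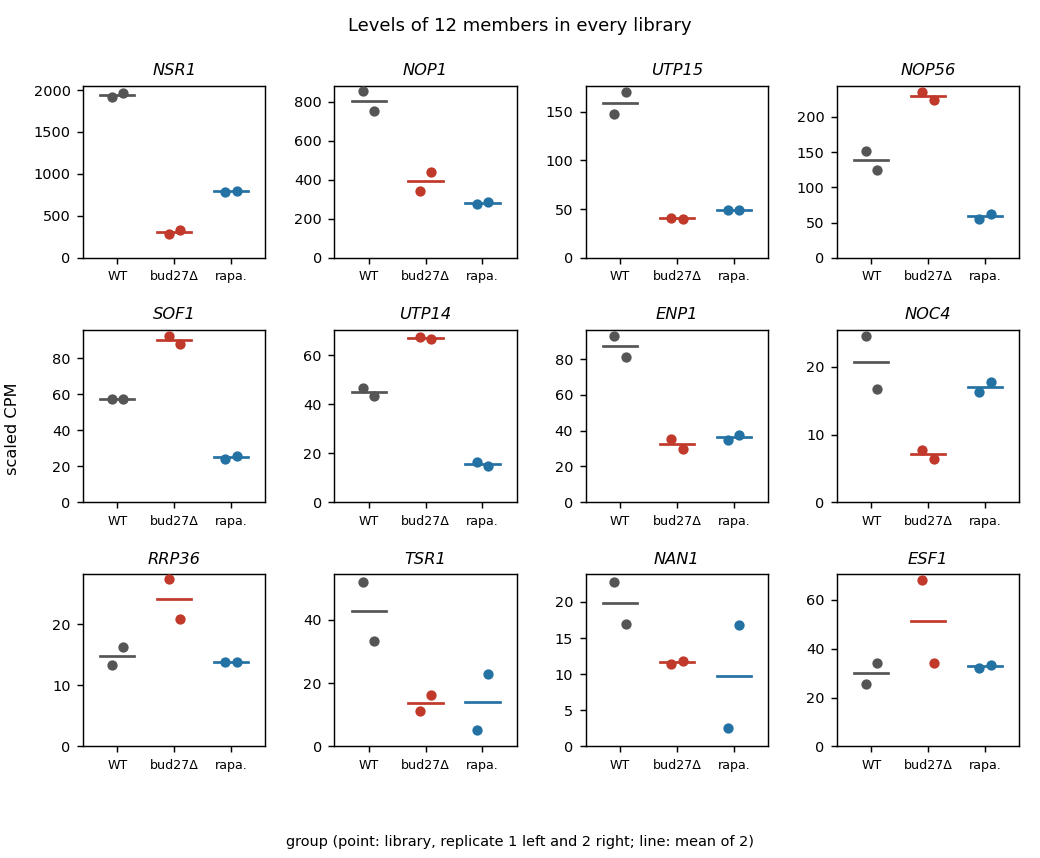
Scaled CPM (linear axes from 0) of 12 members in the 6 libraries, with 1 point per library and a line at the mean of 2. NSR1 and UTP15 are low in both deletion libraries, NOP56, SOF1 and UTP14 are above WT in the deletion and below it after rapamycin, NOC4 is low in both deletion libraries, and the pairs of TSR1 and NAN1 after rapamycin and of ESF1 in the deletion are spread.

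The direct comparison of the deletion with rapamycin separated most of the list. NSR1 and NOC4 were the 2 members lower in the deletion than after rapamycin. Beyond UTP14, NOP56, SOF1, UTP13 and UTP6, with differences of 2.04 to 1.75, the 37 higher members came from each of the 9 role classes, with 9 of 12 helicases and partners, 6 of 7 tested other processome proteins and 2 of 7 late factors among them. Of the 21 members called lower than WT in both, the direct difference was called higher in 6 (PWP2, NOP1, IMP3, UTP25, DIM1 and FAF1) and lower in NSR1. In the other 14 it was not called and lay between -0.26 for UTP15 and 0.52 for RCL1. This does not show that they were equal. Of the 7 called differences, the 6 higher ones were each lost in at least 1 fit that left out a library. That of NSR1 was kept whichever library was left out.

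Promoter content was set beside the changes with no test. Of all rows, 25.5% were called lower and 21.7% higher in the deletion, and 21.5% were called lower after rapamycin. The 35 tested members with both RRPE and PAC had a median log2 fold change of -0.23 in the deletion, with 12 lower and 3 higher, and -1.01 after rapamycin, with 30 lower. The 12 members with RRPE alone had medians of -0.96 (8 lower, 1 higher) and -1.31 (10 lower). The 6 with PAC alone had -0.24 (3 lower, 1 higher) and -1.13 (6 lower), and the 5 with neither had 0.04 (1 lower) and -0.99 (4 lower). PAC here means all letters of CGATGAG. Every member with RRPE alone, except RRP7, FCF1 and UTP15, held the inner letters GATGAG. So did ESF1, ESF2 and RRP9 among those with neither. NSR1 and UTP14, printed above, each had both elements and moved in opposite directions in the deletion.

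Other genes of ribosome assembly are given for reference. The shares of all rows to set beside their counts are 21.5% lower and 24.4% higher after rapamycin. In the deletion they are 25.5% lower and 21.7% higher. Of 24 further 40S assembly genes, 23 were tested. After rapamycin 15 were lower and 1 was higher, with a median of -0.59, and in the deletion 8 were lower and 3 higher, with a median of -0.29. SNU13, a protein of box C/D snoRNPs and the spliceosome, and KRE33, the 18S acetyltransferase, were the lowest after rapamycin at -1.91 and -1.60, and NOP19 was the gene that rose, at 1.60. MRD1, an RNA-binding protein of the processome, and the helicase gene ECM16 (Dhr1) were the lowest in the deletion at -1.55 and -1.12, while CKA1, a catalytic subunit of casein kinase II, and SQS1 were the highest at 1.04 and 0.73. With the deletion set against rapamycin, NOP19 and HRR25, a casein kinase I, were the lowest at -2.00 and -1.15, and KRE33 and CKA1 the highest at 1.34 and 1.01. Of 74 genes of 60S assembly, 68 were tested, with 56 lower and 0 higher after rapamycin (median -0.98) and 23 lower and 8 higher in the deletion (median -0.22). Among these, the helicase genes SPB4 and DBP6 were the highest in the deletion at 0.97 and 0.92, and the GTPase gene NOG1 and the helicase gene DBP2 the lowest, DBP2 at -2.44. ARX1, a pre-60S export factor, and the helicase gene DBP3 were the lowest after rapamycin at -1.73 and -1.71. The deletion exceeded rapamycin most at DRS1 and SPB4, both helicase genes, by 1.68 and 1.67, and was below it most at NOG1 and DBP2, by -2.62 and -0.95. Of 56 genes for 40S ribosomal proteins, 55 were tested, with 53 lower and 0 higher after rapamycin (median -1.59) and 28 lower and 1 higher in the deletion (median -0.52). RRPE stood in 45.8% of the promoters of the further 40S assembly genes and PAC in 37.5%, both below the shares of the 60 members. RRPE stood in 75.7% of the 60S assembly promoters and 5.36% of those of the 40S ribosomal proteins, and PAC in 62.2% and 0 of 56. None of these lists was tested against the 60 genes.

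The spread between libraries of a group was uneven among the members. Deletion replicate 1 was the higher of the pair in 37 of 58 members, with a median gap of 0.11 log2 units against 0.01 over all rows, and the widest gaps were 0.98 for ESF1, 0.84 for LTV1 and 0.75 for BUD21. The 13 members called higher without deletion replicate 2 were KRR1, UTP4, FCF1, ESF1, UTP6, UTP9, LTV1, SOF1, NOP56, UTP13, UTP14, BUD21 and RRP36. The deletion pair also had the fewest reads per member, with medians of 155 and 186.5 against 579 to 1008.5 in the other libraries. In rapamycin replicate 1, NAN1 had 88 reads and TSR1 182, against 420 and 575 in replicate 2, gaps of -2.32 and -1.93 log2 units, where the next widest gap was -0.59 for RCL1. The part of depth in these gaps was not tested. Leaving out 1 library at a time ended the deletion call of 14 members at least once. They were TSR1, RCL1, LCP5, SAS10, IMP3 and UTP14, described above, with DIM1, PNO1, UTP21, UTP25, BMS1, RRP7, UTP6 and RRP36, and the calls of these last 8 are read with that limit. After rapamycin the same held for 8 members, namely LTV1, TSR1, LCP5, RRP7, DBP8, FCF1, IMP4 and KRR1, and for the deletion against rapamycin for 9, namely DBP8, DIM1, FAF1, IMP3, IMP4, MPP10, NOP1, PWP2 and UTP25.

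The 60 genes lie on 14 chromosomes, each in a single coding exon, with no 2 of them next to each other. In 31 the next gene at the 3′ end is transcribed towards the member, within 300 bases in 24 of them, and none of these coding regions overlap. As the strand setting of the counting is not given in the sources used here, reads of such a neighbour's 3′ end cannot be told apart from the member's own.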

How the data were processed

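The data are 3′ end sequencing libraries (QuantSeq kit, Illumina HiSeq, per the labels' protocols) of 6 yeast samples, 2 in each of 3 groups taken from the sample titles. The authors deposited CPM values, reads scaled to the library total for each row, in a table of 7247 rows. Per the submitters' processing notes, HISAT2, FastQC, DESeq2 and DESeq were used with build R64, and no versions are stated. The counting tool, annotation, strand setting and treatment of reads with several matches were not given in the sources used here, and reads shared with near copies or opposite genes cannot be separated.

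From those values, 100% of entries in each column were whole multiples of 1 read within 0.01 reads, so the reads were recovered. Between 18.8% and 31.2% of a library's total lay outside the listed rows. CPM were divided by TMM factors (edgeR 4.0.16), which were 0.767 and 0.805 (WT), 1.12 and 1.01 (bud27Δ), and 1.19 and 1.20 (rapamycin). Differences were then estimated on log2(scaled CPM + 1), a scale that understates the change of low genes, by limma 3.58.1 in R 4.3.3 (trend option). All 6 samples entered 1 model with a term per group, which leaves 3 residual degrees of freedom. CUT and SUT rows (925 and 847) were left out, and edgeR's filter by group (minimum count 10) kept 5279 rows. Adjusted p-values follow Benjamini and Hochberg over these rows, with 0.05 as the threshold. The fit was also run on simulated data in which few genes changed, as many up as down. As many more rows were called in the real libraries, this does not show the error rate there.

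The 60 members, the lists of other assembly genes, the motifs and the rule for named genes were chosen with earlier results of these data known. By that rule a member was given with every library's value and its statistics where its absolute log2 fold change was the largest or second largest of its role class in the deletion or after rapamycin, at a mean of at least 20 CPM, or the largest in the deletion against rapamycin. NOC4 and some further genes given with their levels were added after their values were seen. Of other assembly genes the 2 largest changes in each direction were named. Role classes and roles rest on general knowledge of yeast. Alternatives were the scale, pseudocount, filters, joined rows, groups in the fit, a replicate block, each library left out, edgeR's quasi-likelihood test and DESeq2 1.42.0 on the recovered reads. Replicates of a group differed beyond sampling noise. The replicate numbers were not used to pair samples.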

Additional observations from a re-analysis of the deposited data

How the results depend on the processing

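The members' counts and medians were recomputed under 17 alternatives. The deposited CPM scale moved the most results. In the deletion it gave 20 members higher and 11 lower and turned the median from -0.24 to 0.19, after rapamycin it gave 30 lower with a median of -0.48, and for the deletion against rapamycin a median of 0.53. The absolute level cannot be set from these data. A pseudocount of 5 gave medians of -0.93 after rapamycin and 0.53 for the deletion against rapamycin. Leaving out 1 library at a time gave 3 to 13 members higher and 15 to 22 lower in the deletion, and a median between 0.63 and 0.81 for the deletion against rapamycin. In those fits with 1 library left in a group, that library is assumed to vary like the others. Over all rows, calls in the deletion went from 2492 to 1503 and 1434 without WT replicate 1 and 2, and after rapamycin from 2421 to 1605 and 1610, and to 1588 without rapamycin replicate 1.

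With the replicate block the deletion had 5 members higher and 23 lower, rapamycin 50 lower, and the deletion against rapamycin 35 higher and 2 lower. Same-numbered libraries correlated at -0.05, -0.10 and 0.04 in their deviations from the group means, so no large shared replicate effect was seen. With 2 libraries a group this cannot decide whether the numbers pair samples, which the sources do not state. The count test of edgeR on the recovered reads called 2456, 2657 and 2911 rows in the 3 comparisons, with 5 members higher and 23 lower in the deletion, 51 lower after rapamycin and 38 higher and 2 lower for the deletion against rapamycin. The other results not named here stayed within 1.5 times the count or within the spread of the libraries.

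Of the 50 members lower after rapamycin, 30 kept the call in every alternative and 42 in every one but the deposited scale. Of the 24 lower in the deletion, 10 kept it in all (ENP1, FAF1, FAL1, NOC4, NOP1, NSR1, RRP12, UTP15, UTP18 and UTP23), and of the 5 higher, NOP56 and SOF1. NSR1 and NOC4 stayed below rapamycin in all, and 27 of the 37 higher members stayed above it. For the members chosen by the rule for named genes, which does not include NOC4, 1272 fold changes were recomputed. Of these, 1177 kept their direction and call, 55 lost the call, 19 gained one and 20 uncalled values changed sign. NOP58, not called in the deletion, changed sign there and was called higher at 0.38 on the deposited scale. FCF1, called lower after rapamycin, was at 0.03 and not called on that scale. The deletion libraries were the shallowest, and what depth did to the calls was not tested.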
